A study of Xenopus tropicalis with 26 samples.

Results

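The cytosolic ribosomal protein genes of *Xenopus tropicalis* are described here in whole embryos that passed from blastula to the end of gastrulation. They were chosen by symbol, as every gene whose name is *rpl* or *rps* with a number and at most a letter and a digit after it, together with *rplp0*, *rplp1*, *rplp2* and *rpsa*. This gave 79 of the 34192 genes in the table, 30 named for the small (40S) subunit and 49 for the large (60S) subunit. The symbol *rpl34* stands for 2 genes, which are kept apart by their identifiers, gene7213 and gene1837. The rule leaves out *fau*, which encodes a ribosomal protein fused to a ubiquitin-like protein and is given with the other translation genes. The member *rps28p9* is listed by RefSeq with *rps28* as a synonym. The reading of RNA from near-identical copies and paralogs can be split between them by the quantification. How alike the 2 genes named *rpl34* are in sequence was not examined.

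The study asked which signals follow when the membrane potential of the embryo is changed, and kept embryos at 25 °C in the control medium 1/9x MR, with no injection or other agent, or in high K+ medium, which depolarises cells. The KCl concentration of this medium is 10 mM in the methods of the RNA-seq experiment and 20 mM in the general ones. Pools of 10 embryos were taken every 30 min from stage 8, which gave 13 control and 13 high K+ samples of poly(A) RNA from 0 to 6 h. Stage 13 is given as the last stage in the methods and stage 12 in a legend. The general methods start treatments during gastrulation at stage 8. How long the embryos of 0 h had been in high K+ is not stated. A difference at 0 h therefore cannot be told apart from one present before exposure.

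Both conditions are single time courses without a replicate at any time, and time points stand in for replicates in every test below. The values are abundances for each gene that the authors derived from TPM, a unit per transcript length, and corrected with the ERCC spike-in RNAs. The correction was fitted separately in each condition. An error in it that differs between genes therefore cannot be told apart from an effect of high K+. The abundances were used as deposited, and the read depth behind them is unknown, so no counting interval can be given. Since the pools are whole embryos, more cells of a type and more RNA per cell cannot be told apart, and since poly(A) RNA was measured, new mRNA and longer poly(A) tails on stored mRNA cannot be told apart.

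The ribosome is built in the nucleolus from ribosomal RNA and ribosomal proteins, which are needed in matching amounts, and its protein genes are usually expressed together. Their mRNAs begin with a 5′ terminal oligopyrimidine (TOP) tract, through which mTOR signalling controls their translation. In *Xenopus*, the egg holds a large store of maternal ribosomes, ribosomal protein mRNAs lose their poly(A) tails and leave polysomes when the oocyte matures, and the embryo makes these mRNAs again from its own genome after the midblastula transition.

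Of the 79 genes, 78 exceeded 0.4 in 6 consecutive samples of a condition and were tested among 15019 genes. The remaining one, *rpl3l*, the skeletal and heart muscle paralog of *rpl3* in mammals, was at 0 in most samples and never above 0.42. Of 13 stage and germ layer genes, 8 rose and 4 fell in the control embryos from the first hour to the end, among them the maternal linker histone *h1foo*, at 20285 at 0 h and 834 at 6 h, and the endodermal *sox17a*, at 2.74 and 238. The level of the spike-in RNAs, added in equal amount to each sample, was not flat in the deposited values. Taken as the median over 43 spike-in RNAs on the log2 scale, it lay between -0.58 and 0.65 across samples and was higher in high K+ by 0.13 ± 0.37 (SD, n = 13 time points). From 0 to 1 h to 4.5 to 6 h the spike-in level moved by 0.25 in the control course and by -0.20 in the other. Most ribosomal protein mRNAs departed from both neighbours in the control samples of 4 h and 4.5 h. At 4 h, 64 of the 78 were above both neighbours and 0 below both, and at 4.5 h, 59 were below both the 4 h and the 5 h sample and 12 were above both. In high K+ the sample of 0.5 h had 61 of 78 below both neighbours. These samples also departed over all tested genes. The median absolute departure from the neighbours was 0.286 at 4 h and 0.316 at 4.5 h, the highest values in control. At 0.5 h in high K+ it was 0.349, the highest of that course. Such counts were not taken for all tested genes.

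Ribosomal protein mRNA rose together in control embryos. The median over the 78 genes was 156 over the samples of 0 to 1 h, 268 over 1.5 to 2.5 h, 607 over 3 to 4 h and 914 over 4.5 to 6 h. From the first to the last of these windows the change was tested with limma on log2(abundance + 1), with Benjamini-Hochberg adjustment over all 15019 genes. By this test 76 of 78 rose, or 97.4%, and 0 fell, where 20.7% of all tested genes rose and 54.6% fell. The median change over the members was 2.41 on the log2 scale, and that over all tested genes was -0.76, so that the median member lay above 92.5% of tested genes. In 76 of 78 every sample of 4.5 to 6 h was above every sample of 0 to 1 h, which was so for 19.8% of all tested genes. Without the time point of 4.5 h, 75 of 78 rose, and 76 did without that of 4 h.

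In high K+ embryos, 74 of 78 rose, or 94.9%, and 0 fell, where 20.3% of tested genes rose and 55.6% fell. All 74 had also risen in control. The medians of the same windows were 181, 281, 582 and 1080. The median change was 2.31 on the log2 scale against -0.79 over all tested genes. In 75 of the 78 every sample of 4.5 to 6 h was above every sample of 0 to 1 h, against 18.3% of all tested genes. The rise was also present under both other scalings between samples. With size factors, which bring the median gene of each sample to one level, the median changes of all tested genes were 0.12 in control and 0.10 in high K+, and those of the members were 3.45 and 3.39, with 77 of 78 risen in each. After division by the spike-in level they were -0.98 and -0.62 for all tested genes and 2.17 and 2.49 for the members, with 74 and 75 risen. Of the 15019 tested genes, 5774 in control and 5640 in high K+ rose with size factors. With spike-in scaling 2574 and 2987 of them rose.

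**Figure D1:**
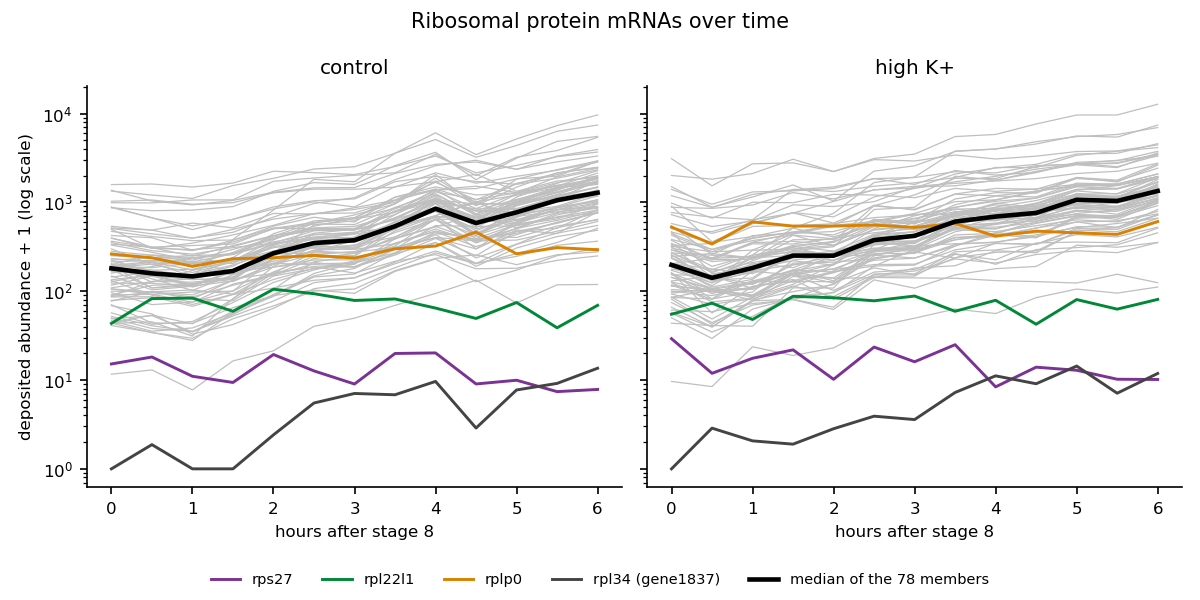
Abundance plus 1 (log scale) of each of the 78 tested ribosomal protein mRNAs against hours after stage 8, in control (left) and high K+ (right), with 1 sample per time point. Grey lines are single genes, the black line is their median, and coloured lines mark *rps27*, *rpl22l1*, *rplp0* and the *rpl34* gene gene1837. The median rises in both conditions, while *rps27*, *rpl22l1* and, in high K+, *rplp0* do not follow it.

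The summed abundance of the members was 21706 at 0 h in control, was lowest at 1 h with 18091, and reached 129470 at 6 h. In high K+ it was 27554 at 0 h, lowest at 0.5 h with 19262, and 142270 at 6 h. The course was not smooth, since the control sum was 87872 at 4 h, 63017 at 4.5 h and 78749 at 5 h. The spike-in level differed between these samples, at 0.40 at 4 h and -0.22 at 4.5 h on the log2 scale. Divided by that level, the control sum rose at each step, with 66404 at 4 h, 73475 at 4.5 h and 92534 at 5 h, and went from 19541 at 0 h to 100570 at 6 h. In high K+ the scaled sum went from 17557 to 160100, with drops at 3, 4.5 and 5.5 h. At 0 h, 0 of the members in control and 1 in high K+ were among the 100 most abundant genes, and at 6 h 11 and 12 were.

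**Figure D2:**
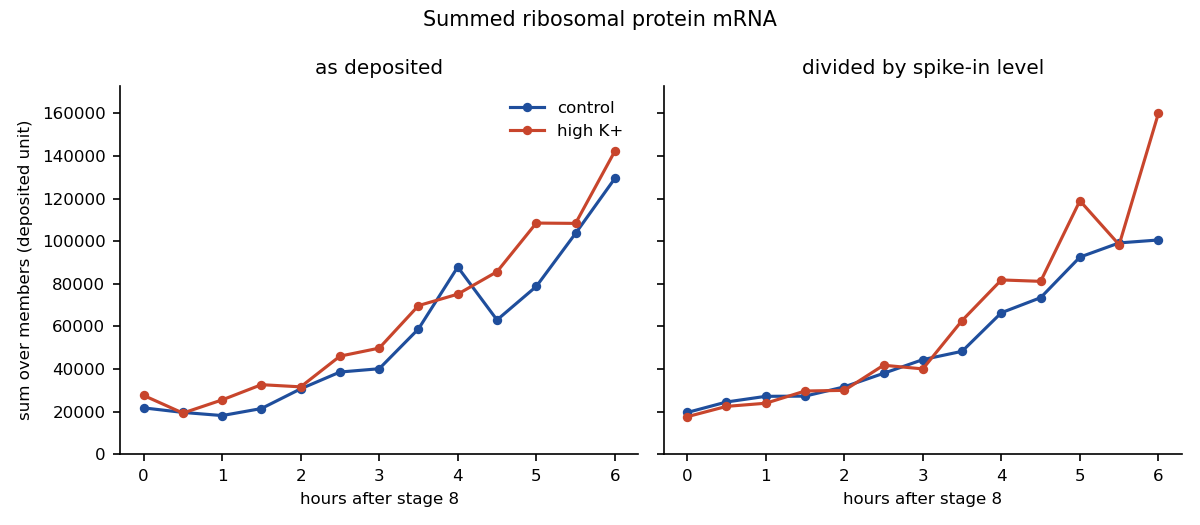
Sum of the abundances of the ribosomal protein mRNAs against hours after stage 8, as deposited (left) and divided by the spike-in level of each sample (right), for control (blue) and high K+ (red), with 1 sample per point. The drop of the deposited control sum from 87872 at 4 h to 63017 at 4.5 h is absent from the scaled sum, which goes from 66404 to 73475.

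The rise was also read in steps between neighbouring windows. In control, 12 of 78 rose from 0 to 1 h to 1.5 to 2.5 h, where 6.17% of tested genes did, 57 rose in the next step, where 7.78% did, and 6 in the last, where 5.79% did. The median changes of these steps were 0.63, 1.07 and 0.63 on the log2 scale. In high K+ the counts were 12 (8.41% of tested genes), 40 (5.85%) and 33 (5.85%), with medians of 0.63, 0.89 and 0.83. These counts depended on single time points. Leaving out 1 time point at a time gave between 2 and 24 members in the first step, between 0 and 69 in the second and between 0 and 36 in the last in control, and between 2 and 21, between 1 and 57 and between 0 and 51 in high K+. Without the time point of 4 h the control counts of the second and last steps were 0 and 36, and without that of 4.5 h they were 65 and 35, so they do not place the rise in one step. No member fell by this test in any step of either condition, where 6.55%, 15.5% and 11.5% of tested genes fell in the 3 steps in control and 2.49%, 24.5% and 25.0% in high K+. For the 74 genes that rose in both conditions, a time of rise was read from the Gaussian process curve fitted to each condition. It is the time at which this smoothed curve crossed the level midway between its minimum and its later maximum. Most members were highest in the last sample, so this maximum, and the time read from it, depend on where sampling ended. In control the time of rise was 3.97 h in the median, with a range of 3.19 to 4.70 h. In high K+ it was 4.07 h, with a range of 3.02 to 4.89 h. The crossing was later in high K+ for 44 genes and earlier for 30. The median difference was 0.04 h, which is less than the 30 min between samples.

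Most of the genes also kept a common shape. Over the 13 time points, the median correlation (r) of log2 abundance between pairs of members was 0.97 in control and 0.96 in high K+, and 84.6% and 81.7% of pairs were above 0.9. The lowest pairs were at -0.51 in control and -0.58 in high K+. In control the mean r with the other members was -0.30 for *rps27* and -0.24 for *rpl22l1*. The points share their sample, its spike-in level and the rise over time, so the values describe the courses and are not tests. No such value was computed for other genes. The order of the genes by abundance was also kept, with a rank correlation across the 78 genes of 0.69 between 0 and 6 h in control, 0.72 in high K+, and 0.95 between control and high K+ at 6 h. Genes that started low rose more, with a rank correlation between the level at 0 to 1 h and the rise of -0.56 in control and -0.48 in high K+. The starting level is part of both quantities, so a negative value arises in part by construction.

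The largest rises were spread over both subunits. *rpl37*, a zinc-binding protein of the 60S subunit, was at 186, 210 and 144 in the control samples of 0, 0.5 and 1 h and at 3217, 4367, 6309 and 7425 from 4.5 to 6 h. The rise was 4.82 ± 0.45 (SE) on the log2 scale with an adjusted p of 1.15e-08 by limma in control and 4.62 ± 0.45 with 1.99e-08 in high K+. It was the second most abundant member on average, after *rpl35*. *rpl32*, another 60S protein, was between 30.2 and 44.2 in the first window and between 783 and 1258 in the last, a rise of 4.54. *rps2*, which lines the mRNA entry channel of the 40S subunit, was between 26.9 and 40.1 at first and between 589 and 899 at the end, a rise of 4.44. The *rpl34* gene gene7213 rose by 4.42 and *rps23*, a protein of the decoding centre, by 4.14. In high K+ these 4 rose by 3.91, 4.08, 4.82 and 4.12 on the same scale.

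Among the 40S proteins, 29 of 30 rose in both conditions, with a median of 2.60 on the log2 scale in control. *rps6*, the substrate of the S6 kinases that act below mTOR, was at 204, 125 and 170 in the control samples of 0 to 1 h and at 918, 1827, 2336 and 2935 in those of 4.5 to 6 h. Its rise was 3.49 ± 0.41 in control and 3.86 ± 0.41 in high K+. *rpsa*, which in mammals is also known as the laminin receptor, was between 66.6 and 85.7 at first and between 206 and 365 at the end, a rise of 1.81. *rps27a*, made as a fusion with ubiquitin, went from between 395 and 507 to between 2351 and 3934, a rise of 2.79. The members *rps15*, *rps18* and *rps25*, with the highest mean abundances among the 40S genes, rose less than this median. *rps15* was between 806 and 867 at first and between 1800 and 5530 at the end and rose by 2.08, *rps25* rose by 1.75, and *rps18*, between 1489 and 3687 over the control samples, rose by 0.88.

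Among the 60S proteins, 47 of 48 rose in control and 45 of 48 in high K+, with medians of 2.38 and 2.28. *rpl35*, which sits at the exit of the peptide tunnel, was the most abundant member, between 1107 and 1339 in the first control window and between 3446 and 9639 in the last, a rise of 2.29. *rpl13* rose by 1.36 from between 936 and 1368. *rpl5* and *rpl11*, which with 5S rRNA form the particle that binds MDM2 in mammals when ribosome assembly is disturbed, rose by 1.46 and 2.19. *rpl38*, whose loss in the mouse alters the axial skeleton, rose by 3.08 in control and 3.79 in high K+. *rpl10*, which in yeast joins the 60S subunit in the last steps of its maturation, rose by 2.80 from between 28.5 and 42.8, and *rpl12*, at the base of the stalk, rose by 3.36 from between 6.74 and 12.0. The *rpl34* gene gene1837 was the lowest tested member, at 0, 0.87 and 0 in the first control window and between 1.88 and 12.6 in the last.

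The stalk, by which the 60S subunit recruits translation factors, is made of *rplp0* and the acidic proteins *rplp1* and *rplp2*. The control mRNA levels of *rplp1* were between 493 and 885 at first and between 1331 and 2073 at the end, and those of *rplp2* between 117 and 176 and between 368 and 608, with rises of 1.39 and 1.62 on the log2 scale. *rplp0* behaved otherwise. In control it was at 261, 237 and 189 in the samples of 0 to 1 h and at 463, 263, 308 and 292 in those of 4.5 to 6 h, a rise of 0.51 ± 0.21 with an adjusted p of 0.0317. Without the sample of 4.5 h the value was 0.34 with an adjusted p of 0.134, and without that of 1 h it was 0.38 with 0.137, neither of which passed, and after spike-in scaling it was 0.26 with 0.358. In high K+ *rplp0* was at 526, 339 and 602 at first and at 474, 453, 435 and 608 at the end, so the groups overlap and the difference of 0.04 ± 0.21 did not pass, with an adjusted p of 0.872, whereas with size factors it was 1.13 and passed, with 0.000244. Its mean correlation with the other members was 0.61 in control and 0.08 in high K+.

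The other exceptions were *rps27* and paralogs of ribosomal protein genes. *rps27*, a zinc-binding 40S protein, was at 14.2, 17.2 and 10.0 in control at 0 to 1 h and at 8.03, 8.95, 6.40 and 6.84 at 4.5 to 6 h. The median over the members was 914 in that last window. Whether another copy took part of the reads of *rps27* was not examined. The change of -0.77 ± 0.39 did not pass, with an adjusted p of 0.0774, and did pass after scaling to the spike-in level, with -0.99 and 0.0172, while with size factors the value was 0.21, the opposite direction, with 0.647. *rpl22l1*, the paralog of *rpl22* that in the zebrafish acts against it in blood and gastrulation, was between 42.4 and 82.7 at first and between 37.7 and 73.6 at the end in control, a change of -0.26 with an adjusted p of 0.419. Under size factors this change was 0.80, the opposite direction, with an adjusted p of 0.0135. In high K+ the change of *rpl22l1* was 0.16 with an adjusted p of 0.622. With size factors it was 1.24 and passed, with 0.000473. Its namesake *rpl22* was between 487 and 584 in control and then between 1067 and 2910, and rose by 1.77. *rpl7l1*, a relative of *rpl7* that acts in ribosomal RNA processing in mammals, rose by 0.64 ± 0.21 in control, with an adjusted p of 0.00992, and was not called without the sample of 0.5 h, where the value was 0.50 with an adjusted p of 0.0712, or after spike-in scaling, with 0.40 and 0.118. In high K+ its change of 0.40 had an adjusted p of 0.0916, and it passed with size factors, at 1.49, and with spike-in scaling, at 0.60. *rpl7* itself rose by 2.19 and 2.30.

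**Figure D3:**
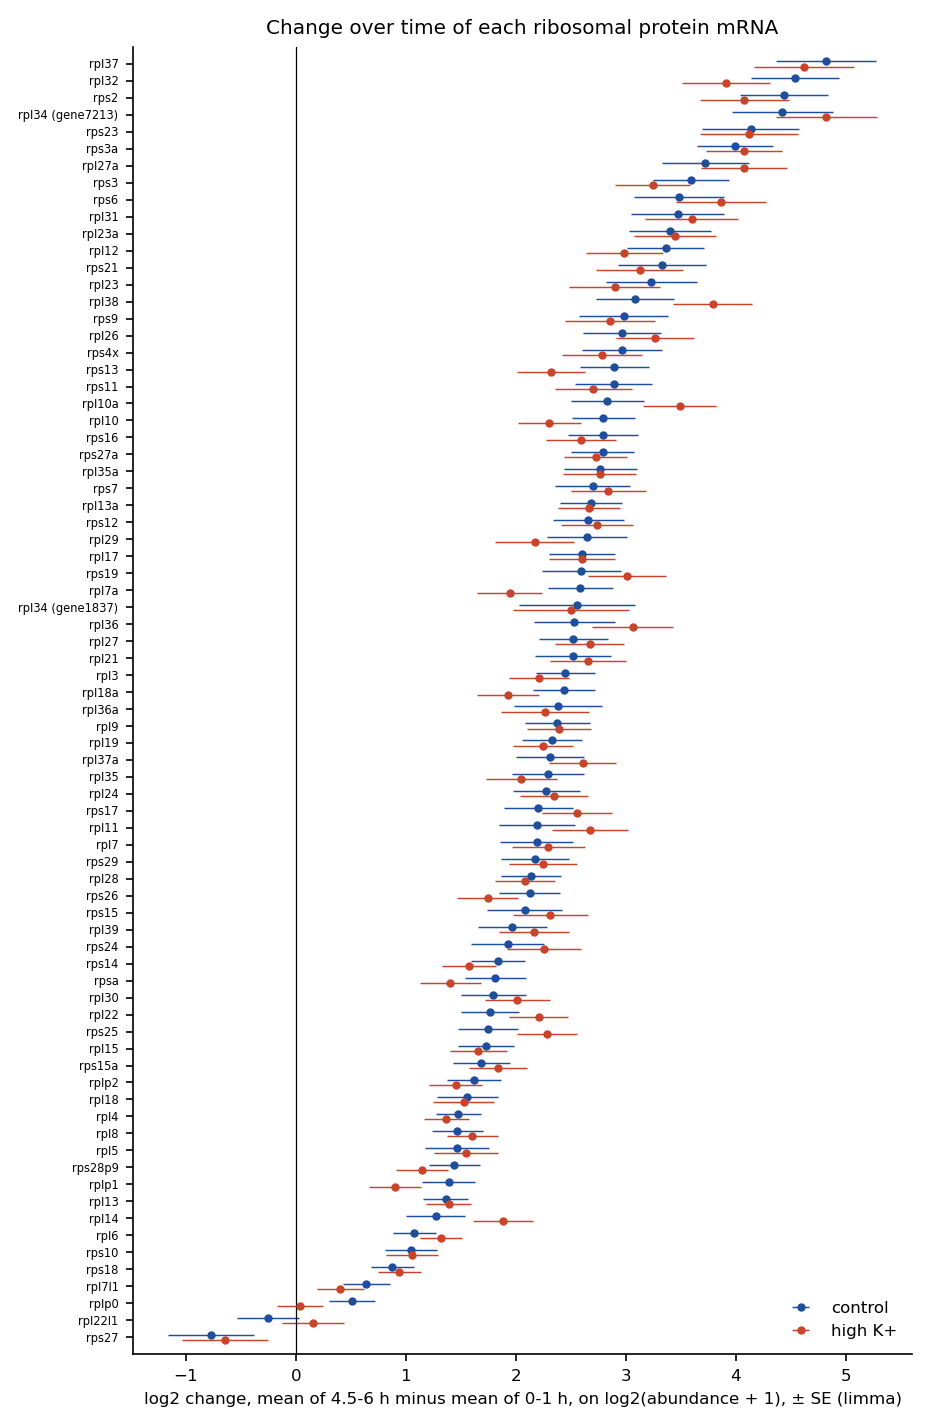
Change of 76 of the 78 tested members from 0 to 1 h (3 samples) to 4.5 to 6 h (4 samples) on log2(abundance + 1), with its SE from limma, in control (blue) and high K+ (red), ordered by the control change. The values run from -0.77 for *rps27* to 4.82 for *rpl37* in control, and only *rps27* and *rpl22l1* lie below 0 in control, where both are above 0 under size factors.

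High K+ was compared with control over the whole course by the test of the study's methods. For each gene, 1 Gaussian process curve through both conditions was set against separate curves, and a log-likelihood ratio above 0 in favour of separate curves called the gene. By this rule 18 of 78 members were higher in high K+, or 23.1%, where 29.6% of all tested genes were, and 3 were lower, or 3.85%, where 9.26% were. Together these were 26.9% of the members, and 38.9% of all tested genes were called in either direction. For the values as deposited, both shares of members were below the background. This order depended on the setting. With spike-in scaling 27 of 78 members were higher, or 34.6%, beside 1855 of the 15019 tested genes, a smaller share, and with size factors 15 were, or 19.2%, beside 18.4%. The rule is not an adjusted p-value. Among 47 spike-in RNAs in the abundance range of the members, which do not depend on the embryos, 7 had a ratio above 0, 6 of them higher in high K+. The authors' correction was fitted to the spike-in RNAs in each condition, so this count gives no error rate for mRNAs.

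The mean over 13 time points of the log2 difference between high K+ and control was 0.18 in the median over the members and 0.08 over all tested genes. It was above 0 for 58 of 78 members and for 8851 of the 15019 tested genes. The SD given with these means is taken across the time points and holds no replicate error. For the spike-in RNAs of the same abundance range the median was 0.14. The part of the spike-in level in the members' difference was not tested, but the median over members was 0.04 after scaling to that level and 0.07 with size factors. Over all tested genes these medians were -0.03 and -0.01. The 40S genes had a median of 0.33 and the 60S genes of 0.11, and 11 of 30 and 7 of 48 were called higher, or 36.7% and 14.6%, beside 29.6% of all tested genes. The difference between the subunits was not tested. After scaling to the spike-in level these medians were 0.19 and -0.02, so that of the 60S genes changed direction, and with size factors they were 0.22 and 0.00.

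The 18 genes called higher, 11 of the 40S and 7 of the 60S subunit, included *rps3a*, *rps6*, *rps9*, *rps12*, *rps15*, *rps15a*, *rps18*, *rps23*, *rps28p9* and *rps29* of the 40S subunit and *rpl3*, *rpl4*, *rpl7*, *rpl11*, *rpl22*, *rpl35* and *rplp0* of the 60S subunit. Over the 18, mean log2 differences were between 0.32 and 0.89, and each was higher at 10 or more time points. With size factors 14 of the 18 were also called, and with spike-in scaling 17. Under all 3 scalings 13 were, and 9 of these kept the call when each time point in turn was left out. The limma fit that compares samples of the same time, with the time point as a block, gave adjusted p below the threshold of 0.05 for all 18 and called 31 of 78 higher, or 39.7%, and 3 lower, where 27.2% and 12.5% of all tested genes were. Without the block, limma called 1 member higher and 1 lower, and 3.98% and 0.839% of all tested genes.

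*rplp0* had the largest difference. It was between 189 and 463 in control, with a median of 261, and between 339 and 608 in high K+, with a median of 526. High K+ was above control at each of the 13 time points, with 526 and 261 at 0 h, although the ranges overlap. The mean difference was 0.89 ± 0.44 (SD, n = 13) on the log2 scale, with a log-likelihood ratio of 12.5 and an adjusted p of 6.04e-05 by limma with the block. The early mean (first 6 time points) was 1.12 and the late mean (last 7) was 0.69, and the change between them, -0.43, did not pass, with an adjusted p of 0.409.

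*rps3a*, a 40S protein near the site of initiation factor binding, was between 34.5 and 818 in control, with a median of 207, and between 38.6 and 1180 in high K+, with a median of 440. It was higher in high K+ at all 13 time points, by 0.66 ± 0.33 with a ratio of 9.56. *rps28p9*, between 542 and 2316 in control and between 952 and 3359 in high K+, was higher at all 13 time points by 0.63 ± 0.32, with a ratio of 6.58. *rps15a* was likewise higher at all 13, by 0.57 ± 0.26, with a ratio of 6.56. *rpl3*, a protein close to the peptidyl transferase centre, was higher at 12, by 0.59 ± 0.36, with a ratio of 5.35, and lost the call with size factors, where the ratio was -0.43.

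*rps6* was between 125 and 2935 in control, with a median of 722, and between 144 and 3302 in high K+, with a median of 1211. It was higher in high K+ at 11 time points by 0.46 ± 0.43, with a ratio of 1.97. At 4.5 h its abundance was 918 in control and 2531 in high K+, and without that time point the ratio was -2.06 and the gene was not called. *rps15*, *rps23* and *rpl11* also lost the call without 4.5 h, with ratios of -0.81, -1.08 and -2.57, and without 5 h, with -0.63, -1.21 and -1.15. For *rpl11* the same held without 3.5 h, with -0.19. Without 4.5 h, 14 members were called higher and 2 lower. *rps18* and *rps23* were not called with size factors, with ratios of -1.14 and -0.69. For *rpsa*, *rplp2* and *rpl10* the ratios were -2.51, -0.29 and -0.06 beside mean differences of 0.34, 0.37 and 0.46, and *rplp1*, *rpl5*, *rpl38* and *rps27a* had ratios below 0 as well. The calls of some of these depended on the setting. With spike-in scaling *rpsa* and *rplp2* were called higher, with ratios of 1.04 and 2.12, and *rpl10* and *rplp2* were called when any of 5 and of 4 time points was left out. By limma with the block, *rpsa*, *rplp2*, *rpl10* and *rps27a* were higher, with adjusted p of 0.0348, 0.00679, 0.00357 and 0.0179.

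**Figure D4:**
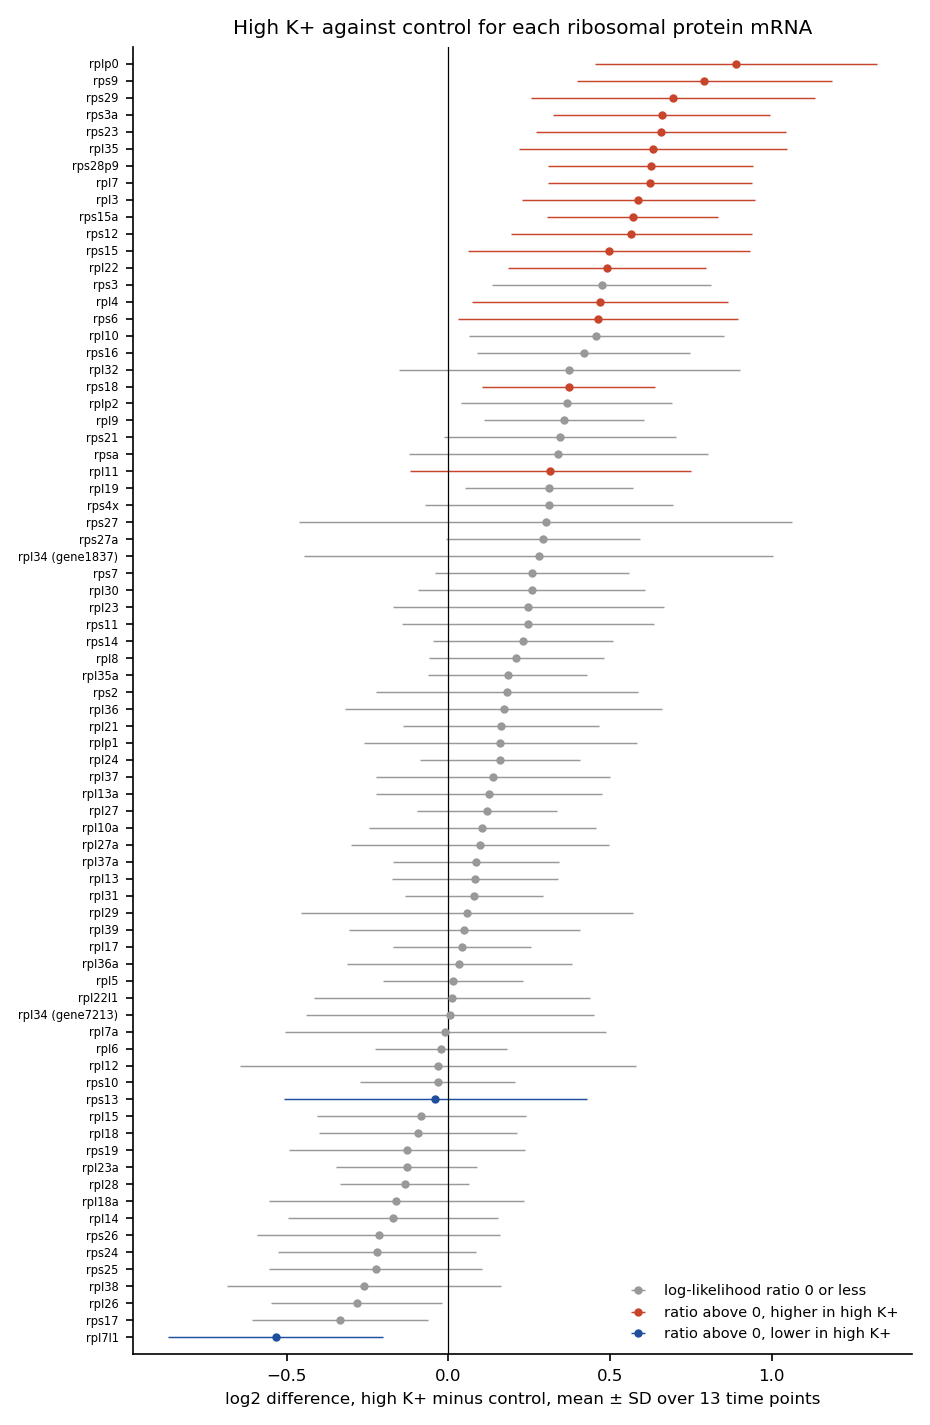
Log2 difference of abundance plus 1 between high K+ and control for 76 of the 78 tested members, as the mean over 13 time points with its SD. Red marks genes with a log-likelihood ratio above 0 that were higher in high K+, blue those that were lower, and grey the 57 that were not called. The values run from -0.53 for *rpl7l1* to 0.89 for *rplp0*.

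The 3 genes called lower in high K+ included *rpl7l1* and *rps13*. *rpl7l1* was between 108 and 257 in control, with a median of 178, and between 80.1 and 154 in high K+, with a median of 127. High K+ was below control at each of the 13 time points, by 0.02 at the least and 1.00 at the most on the log2 scale. The mean difference was -0.53 ± 0.33 with a ratio of 6.18, and the gene was called lower under all 3 scalings and without each time point in turn. Its namesake *rpl7* was called in the other direction, higher at all 13 time points by 0.62 ± 0.32. For the other pair of this kind, *rpl22* was higher at all 13 by 0.49 ± 0.31, and *rpl22l1* had a difference of 0.01 ± 0.43, which was -0.10 with size factors and -0.12 with spike-in scaling, and a ratio of -4.60. *rps13* had a mean difference of -0.04 and a ratio of 0.02, and lost the call when any of 9 time points was left out, among them 4.5 h, where the ratio was -3.22 and the difference 0.03. The count of genes called lower was 6 without 5 h and 5 without 6 h.

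**Figure D5:**
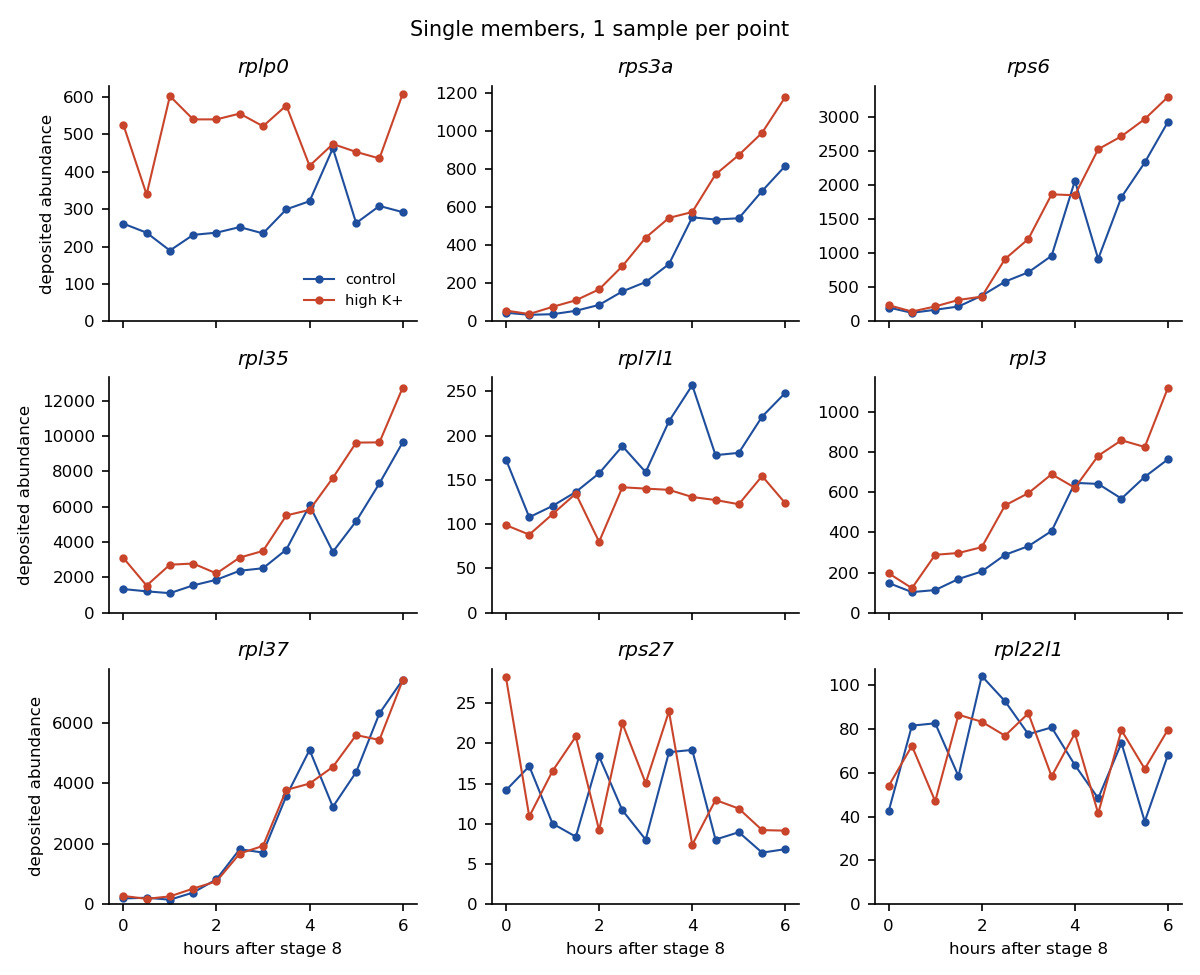
Abundance against hours after stage 8 for 9 members in control (blue) and high K+ (red), with 1 sample per point and a separate axis from 0 for each gene. *rplp0* and *rps3a* are higher in high K+ at every time point, *rpl7l1* is lower at every time point, and *rpl37* follows the same course in both.

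By time point, the count of members higher in high K+ was between 14 and 74 of 78. It was 74 at 1.5 h and at 5 h and 14 at 4 h. Already at 0 h, 52 members were higher, with a median log2 difference of 0.28. Over all tested genes the median at 0 h was 0, and the spike-in level differed by 0.50. The median log2 difference at 1.5 h was 0.53 over the members and 0.48 over all tested genes. The spike-in level there differed by 0.49. For 5 h the medians were 0.43 and -0.0003, and the spike-in level differed by 0.10. For 4 h they were -0.27 and -0.008. At 4 h the spike-in level was also lower in high K+, by 0.53 on the log2 scale. At 4.5 h, 61 members were higher in high K+, with a median of 0.30, while the median over all tested genes was -0.38 and the spike-in level differed by 0.30. Whether the difference between conditions changed through the course was tested by limma on the 13 differences, the last 7 against the first 6. The member medians were 0.22 early and 0.16 late, beside 0.13 and 0.04 over all tested genes. The median change was -0.10 over the members and -0.07 over all tested genes. With spike-in scaling both had the opposite direction, at 0.27 and 0.23, and with size factors they were 0.001 and 0.013. By this test 0 of 78 members and 0 of 15019 genes passed, and at an unadjusted p below 0.05 there were 0 members higher and 9 lower late, and 327 and 1664 of all tested genes. No other tool was run on this question.

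The same tests were read for other genes of the translation apparatus. Of 24 further genes with known or proposed TOP mRNAs, 19 rose and 2 fell in control and 18 rose and 1 fell in high K+, with a median change of 0.98 in control on the log2 scale. Of all tested genes, 20.7% rose and 54.6% fell in control, and 20.3% rose and 55.6% fell in high K+. *fau*, which encodes a 40S protein fused to a ubiquitin-like protein, was at 288 at 0 h and 1500 at 6 h in control. The elongation factor genes *eef1a1o* and *eef1a1* were at 630 and 465 at 0 h and at 12567 and 5997 at 6 h, with rises of 3.97 and 3.55. *eef1b2*, a subunit of the exchange factor of eEF1A, fell by 0.48 in control, and the histone chaperone gene *nap1l1* fell by 1.48. With size factors 22 of the 24 rose and 0 fell in control, and with spike-in scaling 13 rose and 2 fell. Of the 15019 tested genes, 5774 rose and 4825 fell with size factors, and 2574 rose and 8383 fell with spike-in scaling. Against control, 9 of the 24, or 37.5%, were called higher in high K+ and 0 lower, beside 29.6% and 9.26% of all tested genes. Among the 9 were *eef1a1o*, with a mean difference of 0.79 ± 0.25, and *eef1b2*, with 0.62 ± 0.19 and a ratio of 11.8.

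The genes that make ribosomes moved in both directions. Of 98 ribosome biogenesis genes, 32 rose and 29 fell in control, and 31 rose and 31 fell in high K+, with a median change of -0.01 in both. This balance depended on the scaling, since 70 rose and 10 fell in control with size factors, with a median of 1.05, and 22 rose and 29 fell with spike-in scaling, with a median of -0.24. In control, where 20.7% of all tested genes rose and 54.6% fell, 6 of 12 genes of ribosomal RNA transcription fell and 1 rose, among them *taf1d*, a subunit of the RNA polymerase I selectivity factor, from 109 at 0 h to 11.8 at 6 h. Of 36 genes of small nucleolar particles and ribosomal RNA processing, 14 rose and 8 fell, and of 35 genes of 60S assembly and export, 12 rose and 8 fell. The largest rises were those of *wdr12*, of the PeBoW complex, from 3.91 to 111, and of *rsl24d1*, a 60S assembly factor, from 47.5 to 1047, with changes of 4.71 and 3.40. Of 15 genes of 40S assembly and export, 5 rose and 7 fell. With size factors, 5 genes of ribosomal RNA transcription rose and 5 fell, 29 and 1 of the small nucleolar group, 28 and 2 of the 60S group and 8 and 2 of the 40S group, beside 5774 and 4825 of all tested genes. As deposited, the kinase gene *riok1* fell by 2.07 and *pno1* rose by 1.39. Of 72 mitochondrial ribosomal protein genes, 9 rose and 41 fell in control and 6 rose and 38 fell in high K+, with a median of -0.61 in control beside 2.41 for the cytosolic ones. The shares that fell were 56.9% and 52.8%, close to the 54.6% and 55.6% of all tested genes. With size factors 34 of them rose and 15 fell in control, and their median was 0.45, the opposite direction, beside 3.45, and with spike-in scaling it was -0.85 beside 2.17.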

How the data were processed

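The authors mapped the reads with STAR to Xt9.1 and the ERCC sequences and obtained isoform TPM from RSEM. A dinucleotide correction, learned from the spike-in RNAs of each condition, was then applied before isoforms were added up per gene. The paper gives as its reason a batch-dependent bias by GC content, which differed between control and high K+ samples. Scaling of whole samples does not act on a bias of this kind. Its part in the differences of single genes between conditions was not tested. The deposited signal values are the result, for 26 samples, 34192 genes and 92 spike-ins, and keep no read counts or depth. Tool versions are not given in the sources used here.

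The paper filtered genes by uncorrected TPM and left out those that its correction altered excessively. Here the filter used the deposited corrected values, so the tested genes and the shares of them differ from the paper's. Genes above 0.4 in 6 consecutive samples of a condition were tested. Each was scaled to its maximum (alpha 1, beta 1000) and fitted by Gaussian processes with a Matern kernel (numpy 2.4.6, scipy 1.17.1 and numba 0.67.0 under Python 3.11.15). Windows, the early and late time points and the replicate block used limma 3.58.1 (R 4.3.3) and log2(abundance + 1), which understates changes of low genes. Adjusted p-values of the changes between windows measure the spread between neighbouring samples only. Those of the fit with the block and of the late against early test measure the spread of the 13 differences between conditions. Without the block they measure the spread over all time points of a condition, which holds the change over time. None of them holds replicate error. The Gaussian process and limma fits were also run on simulated data. The simulated noise was independent for each gene and sample, so it gives no error rates for samples that shift as a whole. Samples of the same time share the sampling hour by the labels. Their deviations from the mean of each gene over the condition correlated by 0.57 to 0.92 over the 13 pairs. These deviations hold the change over time that both courses share, so the values do not test the pairing. Of the 13 control samples, 10 correlated best with the high K+ sample of their own number. Figures were drawn with matplotlib 3.10.9.

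The members and lists were chosen with earlier results of these data known. Members named with values were the 6 most and 6 least abundant, the 5 largest ratios in each direction, the 5 largest changes in control, 10 picked for role, and like-named paralogs with their namesakes. The other genes called in either direction, and those at the threshold of a setting, were added after their values were seen. Alternatives were scaling by size factors or spike-ins, pseudocounts, filters, the time unit and mean of the process, the Bayesian information criterion, limma with and without the block, and leaving out each time point. Sequences and genome coordinates were not used here. Values of some named genes are left out of the text, although all counts include them.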

Additional observations from a re-analysis of the deposited data

How the results depend on the processing

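Leaving out 1 time point in both conditions gave 14 to 23 members higher and 2 to 6 lower in high K+, with a median difference of 0.15 to 0.20, and 75 to 76 risen in control and 74 in high K+. The count of members higher than control was 6 with the Bayesian information criterion, beside 2253 of the 15019 tested genes, 31 in limma with the time point as replicate block, beside 27.2% of them, and 1 without a block, beside 3.98%. The count lower was 6 with size factor scaling, beside 19.0%, 7 with the mean of each gene subtracted first, a fit run on the members alone, 1 with the Bayesian information criterion, beside 1.96%, and 1 in limma without a block, beside 0.839%. Counts of higher members with size factors and spike-in scaling were 15 and 27, beside 2763 and 1855 of the 15019. With spike-in scaling 1 member, *rps27*, fell in control. The change of *rpl22l1* in control was reversed by size factors, at 0.80. Scaling moved the median change of all tested genes in control from -0.76 to 0.12 with size factors and -0.98 with the spike-in level, while that of the members was 3.45 and 2.17. The late against early test gave 0 members under each alternative. Of the other values of single members, 18 gained and 27 lost their call under an alternative and 1439 did neither. The cause of these shifts was not tested. The unknown depth limits what can be said of the lowest members, *rps27* and the *rpl34* gene gene1837.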
